A study of Mus musculus with 4 samples.

Results

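The tropomyosin genes of the mouse, Tpm1, Tpm2, Tpm3 and Tpm4, were followed in RNA sequencing libraries of hearts collected at birth. They are 4 of the 43346 gene identifiers counted in each library and were found by matching Ensembl identifiers, with the version number removed, to mouse gene symbols. All 4 passed the filter on low counts and belong to the 16009 genes tested. The series compared 2 libraries of wild-type (WT) hearts on an ICR background with 2 libraries of MRTFA/B double-knockout (DKO) hearts on a background labelled mixed, all at postnatal day 0 (P0). MRTFA and MRTFB are myocardin-related transcription factors, coactivators of serum response factor (SRF), and the series asks what the heart needs them for. The labels name neither the alleles nor the cells in which they were removed. Strain background differs between the groups, so genotype and background cannot be told apart. The labels do not say whether each library is from a different animal, and p-values therefore reflect library-to-library spread that may be technical only. In whole hearts, fewer cells of a type and less RNA per cell cannot be told apart.

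Tropomyosins are rod-shaped coiled-coil proteins that lie end to end along the actin filament. In the sarcomere they work with troponin, which shifts tropomyosin in response to calcium and so opens the myosin binding sites on actin. Outside the sarcomere, tropomyosins stabilise actin filaments of smooth muscle and non-muscle cells and set which other proteins can bind there. Tropomyosin genes make isoforms by alternative promoters and splicing, and actin and tropomyosin genes are among the classical targets of SRF. Tpm1 encodes the alpha-tropomyosin that is the main form in the rodent heart. Tpm2 encodes beta-tropomyosin, found in skeletal and smooth muscle and in the fetal heart. Tpm3 encodes the slow skeletal muscle form and non-muscle forms, and Tpm4 a non-muscle form.

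The annotation (GENCODE M21, build mm10) places Tpm1 (ENSMUSG00000032366) on the minus strand of chromosome 9 from 67022590 to 67049406 and Tpm2 (ENSMUSG00000028464) on the minus strand of chromosome 4 from 43514711 to 43523765. Tpm3 (ENSMUSG00000027940) lies on the plus strand of chromosome 3 from 90072649 to 90100902, and Tpm4 (ENSMUSG00000031799) on the plus strand of chromosome 8 from 72134975 to 72153142. The annotation lists 16 protein-coding transcripts for Tpm1, 4 for Tpm2, 7 for Tpm3 and 1 for Tpm4. Long forms of 284 codons are annotated 7 times for Tpm1, 3 times for Tpm2 and once for Tpm3, whereas the form of Tpm4 has 248 codons. The deposited counts sum all transcripts of a gene, so the shares below are shares between the 4 genes and no isoform of one gene was measured. Identity of coding sequence between pairs of the genes ran from 73.1% for Tpm2 and Tpm4 to 80.3% for Tpm1 and Tpm3.

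Promoter sequence is shown for Tpm1 and Tpm2, the sarcomeric and smooth muscle members that lay lower in the DKO libraries, because MRTFs act through SRF and its binding motif, the CArG box. RefSeq (GRCm38.p6) gives 5 promoter windows for the 4 genes, each running from 250 bases before to 50 after a start site, with 2 for Tpm3. None of the 5 holds a CArG box without a mismatch, which 1.63% of all 32851 windows hold. With at most 1 mismatch, 3 of the 5 windows have a match, those of Tpm1 and Tpm3, beside 21.1% of all windows. The MCAT motif (CATTCC, either strand) occurs in the Tpm1 window and in 14.7% of all windows, and an E-box (CANNTG) in all 5 and in 72.3% of all windows. A match is a description of these letters only. For each gene the longest stretch of the window free of its annotated exons is given, 5′ to 3′ on the minus strand, with a CArG box of 1 mismatch in capitals. The Tpm2 stretch lies between annotated first exons and holds none of the 3 motifs, so it has no capitals. The E-box of the Tpm2 window, at chr4:43523776-43523781, lies outside the printed stretch, in a shorter exon-free piece upstream of it.
Tpm1, chr9:67049407-67049463: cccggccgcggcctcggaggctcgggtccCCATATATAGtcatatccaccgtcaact
Tpm2, chr4:43523596-43523700: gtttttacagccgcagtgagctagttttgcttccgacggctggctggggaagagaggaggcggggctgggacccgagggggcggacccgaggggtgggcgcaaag

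Depth and sample identity set the frame for the values. Total counts ran from 16175259 in DKO library 2 to 29460641 in WT library 1, and the smallest count of a member was 508 reads, a counting error of 4.44%. Mrtfa was at 9.06 and 11.1 CPM in WT and 3.35 and 2.26 CPM in DKO, where CPM is the count scaled to the TMM-adjusted size of its library. Mrtfb was at 46.9 and 56.8 against 46.0 and 49.6 CPM, but a count over the whole gene checks nothing where only part of a gene is deleted. The 10 cardiomyocyte markers were all detected and summed to 52055 to 58962 CPM, while 10 skeletal muscle markers summed to 6.48 to 10.5 CPM, with Myod1 and Pax7 at 0 counts in every library. The 4 atrial markers summed to 614 and 931 CPM in WT and 1389 and 1212 CPM in DKO. For 3 of them both DKO libraries lay above both WT libraries, beside 25.8% of all genes, and Myl4 overlapped between the groups. edgeR called 0 of the 4, beside 0.075% of all genes. DESeq2 called Nppa higher, beside 2.08% of the genes to which it gave an adjusted p. The part of these markers in the results below was not tested.

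Tpm1 was by far the most abundant member. Per kilobase of annotated exon it stood at 833 ± 59.1 CPM in WT and 610 ± 98.3 CPM in DKO hearts (mean ± SD, n = 2 per group). Its rank among the 15922 tested genes with an annotated length was 28, 27, 27 and 38 in WT libraries 1 and 2 and DKO libraries 1 and 2. Tpm4 came next with 121 ± 11.5 and 96.1 ± 8.07 CPM per kilobase, then Tpm2 with 31.6 ± 5.26 and 14.2 ± 4.94, and Tpm3 was lowest with 5.33 ± 0.466 and 8.20 ± 0.239 (mean ± SD, n = 2 per group). By this length the order Tpm1, Tpm4, Tpm2, Tpm3 held in every library, and only the last pair came close. Tpm2 was 6.24 and 5.58 times Tpm3 in WT libraries 1 and 2, and 2.20 and 1.28 times in DKO libraries 1 and 2. Neighbours in the order did not overlap between libraries of a group, and the closest were 10.7 CPM per kilobase of Tpm2 and 8.36 of Tpm3, both in DKO library 2. In that library Tpm3 was above Tpm2 by the other lengths used, without length correction, and with the reads of gene copies added.

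**Figure D1:**
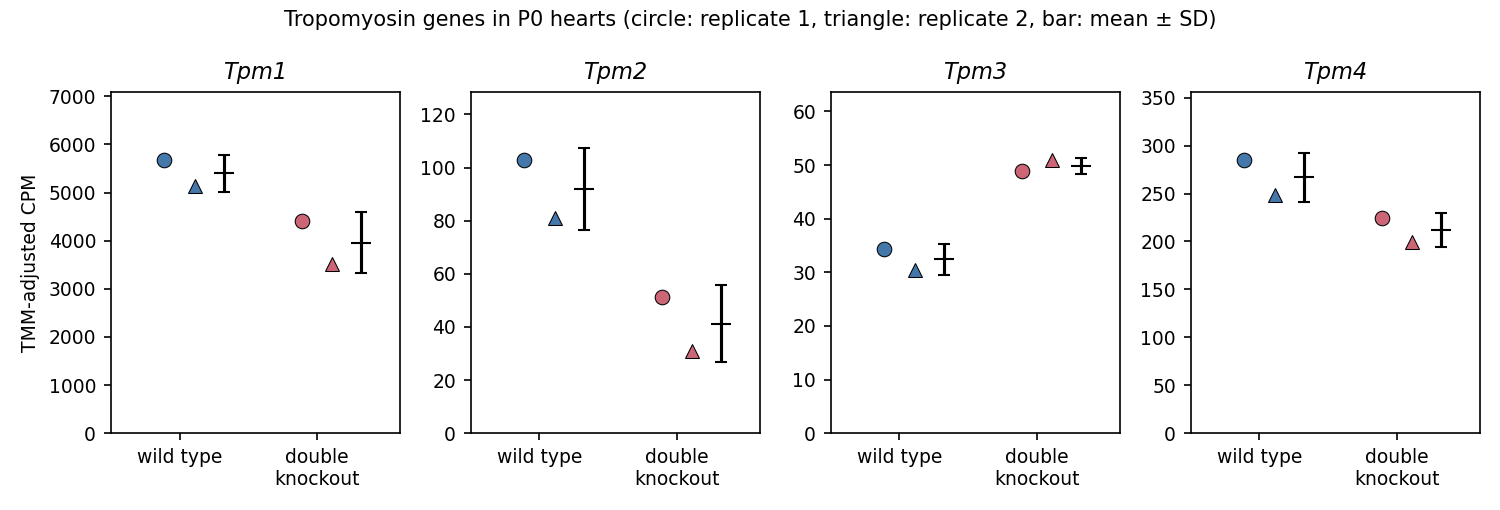
TMM-adjusted CPM of each tropomyosin gene (vertical axis, starting at 0, with its own scale for each gene) in WT and DKO libraries; points are libraries and bars the mean ± SD of 2. Tpm1, Tpm2 and Tpm4 lie lower in both DKO libraries and Tpm3 higher, from 30.4 and 34.4 to 48.8 and 50.9 CPM.

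Tpm1, the sarcomeric tropomyosin of heart muscle, was at 5671 and 5129 CPM in WT libraries 1 and 2 and at 4408 and 3507 CPM in DKO libraries 1 and 2. Both DKO libraries lay below both WT libraries, and the DKO libraries differed from each other by more than the WT ones. The ratio of the means was 0.733 and the log2 fold change -0.45 (SE 0.16, 95% confidence interval -0.83 to -0.06), with adjusted p = 0.239 in edgeR's quasi-likelihood test over all genes. The fold change was -0.62 without DKO library 1 and -0.29 without DKO library 2 (edgeR adjusted p = 0.0116 and 0.254), and -0.38 and -0.53 without WT library 1 or 2 (edgeR adjusted p = 0.971 and 0.627). Each of these fits, here and for the other genes, has 1 group of a single library, which is assumed to vary like the pair of the other group. edgeR called 17.1% and 8.24% of all genes without DKO library 1 or 2, so those p-values support no call. Beside this, the 10 cardiomyocyte markers had a median fold change of -0.17, with 7 of 10 below 0. Both DKO libraries lay below both WT libraries for 6 of them, as for 25.2% of all genes, and the part of cardiomyocyte content in the Tpm1 difference was not tested.

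Tpm2, beta-tropomyosin, showed the largest difference among the 4 genes. It was at 103 and 81.1 CPM in WT libraries 1 and 2 and at 51.4 and 31.1 CPM in DKO libraries 1 and 2. The groups did not overlap, and DKO library 2 was the lowest of all. The ratio of the means was 0.449 and the log2 fold change -1.15 (SE 0.27, 95% confidence interval -1.82 to -0.48). The adjusted p was 0.163 in edgeR and 0.00233 in DESeq2, so that Tpm2 passed the threshold of 0.05 in the second test and not in the first. The fold change was -1.57 without DKO library 1 and -0.84 without DKO library 2 (edgeR adjusted p = 0.000126 and 0.00856), and -0.98 and -1.33 without WT library 1 or 2 (edgeR adjusted p = 0.971 and 0.562).

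Smooth muscle cells are a source of Tpm2 in the heart, and the markers of that cell type are given beside it. The 7 smooth muscle markers of the list summed to 3211 and 1719 CPM in WT and 690.1 and 597 CPM in DKO, and the fold change was below 0 for all 7, with a median of -0.75. edgeR called 0 of the 7, beside 0.075% of all genes, and had 4 lower at an unadjusted p under 0.05, beside 8.63%. DESeq2 called Acta2, Cnn1 and Smtn lower, beside 1.86% of the genes to which it gave an adjusted p. Both DKO libraries lay below both WT libraries for 6 of the 7, beside 25.2% of all genes, and Lmod1 overlapped between the groups. Most of that sum was Acta2, at 2962 and 1468 against 535 and 439 CPM. Acta2 is an actin gene, a class named above among the targets of SRF, so the sum does not measure smooth muscle cells alone. Acta2, Tagln, Cnn1, Lmod1 and Actg2 are also on the partner list below, so the 2 lists are not separate. Myh11, smooth muscle myosin heavy chain and a defining marker of the list, was at 19.9 and 30.7 against 18.9 and 15.4 CPM, a fold change of -0.56 on the log2 scale. Transgelin (Tagln) was at -0.35 and smoothelin (Smtn) at -0.75. Within a library the per-length ratio of Tpm2 to Myh11 was 13.5 and 6.89 in WT and 7.09 and 5.29 in DKO, so the groups overlapped. The ratio of Tpm2 to Cnn1, smooth muscle calponin, was 1.97 and 1.85 in WT and 2.36 and 2.48 in DKO, higher in DKO without overlap, as was the ratio to Acta2, at 0.0262 and 0.0417 against 0.0726 and 0.0534. The ratio to Tagln was lower in DKO without overlap, at 0.769 and 0.678 against 0.6002 and 0.276, and that to Smtn overlapped, at 1.83 and 1.38 against 1.44 and 0.951. The 5 pericyte markers summed to 995 and 1060.4 CPM against 970 and 899 CPM. The part of smooth muscle content in the Tpm2 difference was not tested.

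Tpm4, a non-muscle tropomyosin, was at 285 and 249 CPM in WT libraries 1 and 2 and at 224 and 199 CPM in DKO libraries 1 and 2. The groups did not overlap, but the gap between them, 249 to 224 CPM, was smaller than the distance between the WT libraries. The log2 fold change was -0.33 (SE 0.13, 95% confidence interval -0.64 to -0.02; edgeR adjusted p = 0.264). It was -0.42 and -0.25 without DKO library 1 or 2 (edgeR adjusted p = 0.0394 and 0.258), and -0.24 and -0.44 without WT library 1 or 2 (edgeR adjusted p = 0.971 and 0.625). A processed pseudogene on chromosome 17, Gm7809, is 97.2% identical to the Tpm4 transcript over 740 bases and had 896 and 666 reads in WT and 526 and 355 in DKO, beside 8080 and 6191 against 6359 and 3255 reads of Tpm4. With its reads added, the fold change of Tpm4 was -0.35 (SE 0.12; edgeR adjusted p = 0.241). Antisense transcript Gm26586 shares 134 exon bases with Tpm4 and had 4 to 25 reads, and since it is not known whether the counting used strand, its reads and those of Tpm4 cannot be told apart there.

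Tpm3, the slow skeletal and non-muscle form, was the member with the higher count in DKO hearts. It was at 34.4 and 30.4 CPM in WT libraries 1 and 2 and at 48.8 and 50.9 CPM in DKO libraries 1 and 2, without overlap and with libraries of a group close together. The log2 fold change was 0.62 (SE 0.12, 95% confidence interval 0.32 to 0.92), with an adjusted p of 0.145 in edgeR and 0.0233 in DESeq2. Without DKO library 1 or 2, edgeR gave adjusted p = 0.00429 and 0.0133, and without WT library 1 or 2 it gave 0.971 and 0.604. The count depends on how reads were split with a copy of the gene. Tpm3-rs7 (ENSMUSG00000058126, chromosome 14, 113314608 to 113316754), a retrogene made from the short form of Tpm3, is 99.4% identical to the first transcript annotated for that short form over 2102 bases. Of the 744 coding bases of that transcript, 3 differ, and all 3 lie in the following stretch of 90 bases. It covers coding positions 38 to 127 of the Tpm3 transcript, counted from 1 at the start codon, and chr14:113314713-113314802 (plus strand) in the retrogene; the sequences are those of the GENCODE M21 transcripts and capitals mark the differing bases.
Tpm3: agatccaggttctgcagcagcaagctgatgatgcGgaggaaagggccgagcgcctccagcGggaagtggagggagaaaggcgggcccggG
Tpm3-rs7: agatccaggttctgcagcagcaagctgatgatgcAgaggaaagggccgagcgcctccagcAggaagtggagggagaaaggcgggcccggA

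Of all stretches of 50 bases in that Tpm3 transcript, 66.8% occur unchanged in Tpm3-rs7, and of those of 100 bases, 47.9% do. Reads from these stretches have 2 places in the reference, and the treatment of such reads by the counting is not given here. The retrogene lay the other way: Tpm3-rs7 was at 33.9 and 32.3 CPM in WT and at 16.4 and 16.8 CPM in DKO. Its fold change was -0.99 on the log2 scale (SE 0.12), with an adjusted p of 0.0957 in edgeR and 2.71e-05 in DESeq2. Of the reads of both genes, Tpm3 held 50.4% and 48.5% in WT libraries 1 and 2 and 74.8% and 75.2% in DKO libraries 1 and 2. Their sum was at 68.3 and 62.7 CPM in WT and at 65.3 and 67.7 CPM in DKO, so the groups overlapped. Fitted on that sum, a comparison chosen after the values were seen, the log2 fold change of Tpm3 was 0.02 (SE 0.11, 95% confidence interval -0.24 to 0.28; edgeR adjusted p = 0.939). The higher count of Tpm3 and the lower count of its copy were of like size, and whether expression or the assignment of reads to the copies differed was not tested. A search of the annotated transcripts for copies of at least 90% identity over at least 150 bases found 9 for Tpm3 and 1 for Tpm4, and none for Tpm1 or Tpm2. Of the 9, Tpm3-rs7 and Tpm3-rs2 were counted, the latter with 0 reads in every library, and the other 7 were not analysed here.

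**Figure D2:**
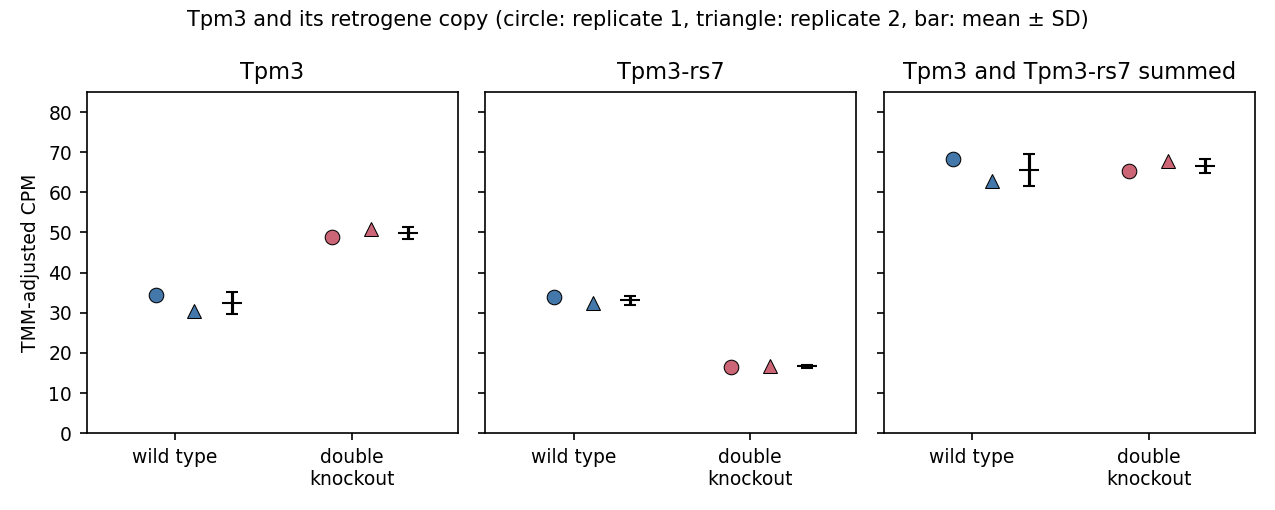
TMM-adjusted CPM (vertical axis, starting at 0) of Tpm3, of its retrogene Tpm3-rs7 and of the reads of both summed, by library; bars are the mean ± SD of 2 libraries. Tpm3 is higher and Tpm3-rs7 lower in both DKO libraries, and the sums of the groups overlap, at 62.7 to 68.3 CPM in WT and 65.3 to 67.7 CPM in DKO.

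Counted together, 0 of the 4 tropomyosin genes passed the edgeR threshold over all genes, where 0.075% of genes did (0.0625% lower and 0.0125% higher), and 0 passed in limma-voom, where 0.0687% did. At an unadjusted p under 0.05, edgeR had 4 of 4 (3 lower, 1 higher), where 17.3% of all genes reached that level (8.63% lower and 8.7% higher). DESeq2 called 2 of 4, Tpm2 and Tpm3, where it called 3.93% of the genes to which it gave an adjusted p (1.86% lower and 2.08% higher). Both DKO libraries lay below both WT libraries for 3 members, as for 25.2% of all genes, and above them for 1, as for 25.8%, so the groups did not overlap for 4 of 4 members and for 51.1% of all genes. The median fold change of the 4 was -0.39 beside 0.01 over all genes tested. The 4 genes together held 0.587% and 0.542% of the total counts of WT libraries 1 and 2 and 0.491% and 0.383% of those of DKO libraries 1 and 2.

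Shares and ratios within a library do not depend on the scaling between libraries. Of the summed per-kilobase level of the 4 genes, Tpm1 held 83.7% and 84.4% in WT and 84.2% and 83.2% in DKO, so its share overlapped between the groups although its level did not. Tpm2 held 3.38% and 2.98% against 2.19% and 1.64%, a difference of -1.26 percentage points. Tpm4 held 12.4% and 12.1% against 12.6% and 13.9%. Tpm3 held 0.542% and 0.534% against 0.994% and 1.29%, or, with the reads of its copies added and those of Gm7809 added to Tpm4, 1.05% and 1.08% against 1.31% and 1.68%. The groups did not overlap for Tpm2, Tpm3 and Tpm4, which gives p = 0.333 in a two-sided exact permutation test, the smallest p that 2 against 2 libraries allow; with the copies added, those of Tpm4 did overlap. The shares rest on the annotated length, which includes transcripts with retained introns for Tpm1 and Tpm3. With the longest transcript in its place, Tpm1 held 91.2% in WT and 90.7% in DKO (means of 2 libraries). For Tpm3 that transcript, of 2374 bases, also has a retained intron. For Tpm1 that transcript, of 2890 bases, codes for a form of 245 codons. By the longest coding length Tpm1 held 91.6% and 91.1%. Tpm2 then held 2.06% and 1.24% and Tpm3 0.666% and 1.41%, so Tpm3 was above Tpm2 in the DKO mean.

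Ratios to Tpm1 tell the same levels apart pair by pair. The log2 ratio of Tpm2 to Tpm1 was -4.63 and -4.83 in WT and -5.27 and -5.66 in DKO, a difference of -0.74, so Tpm2 was lower also relative to the main cardiac tropomyosin. The log2 ratio of Tpm4 to Tpm1 was -2.76 and -2.81 in WT and -2.74 and -2.58 in DKO, a difference of 0.12. The log2 ratio of Tpm3 to Tpm1 was -7.27 and -7.31 in WT and -6.40 and -6.01 in DKO, a difference of 1.08, which was 0.48 with the reads of the copies added. The groups did not overlap in any of these 3 ratios, each with p = 0.333 in a two-sided exact permutation test, but with the copies added the Tpm4 ratio overlapped. For Tpm4 the nearest libraries of the groups, at -2.76 and -2.74, were closer to each other than the WT libraries were.

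**Figure D3:**
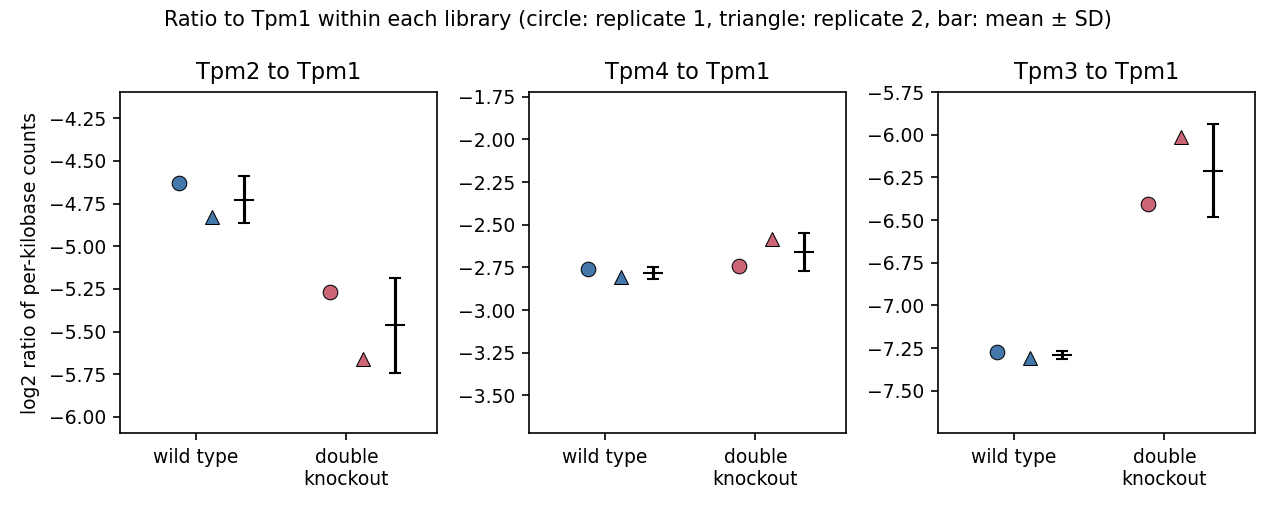
Log2 ratio of per-kilobase counts of Tpm2, Tpm4 and Tpm3 to Tpm1 within each library (vertical axis, each panel spanning the same range of log2 units); points are libraries and bars the mean ± SD of 2. Tpm2 is lower against Tpm1 by 0.74 in DKO libraries and Tpm3 higher by 1.08, before the reads of its copies are added.

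Tropomyosin works with other proteins of the thin filament, and the 30 genes of its partner list were described beside it. Of the 29 tested, 20 had a fold change below 0, and the median was -0.26 beside 0.01 over all genes. edgeR called 0 of them, beside 0.075% of all genes; at an unadjusted p under 0.05 it had 11 lower and 1 higher, beside 8.63% and 8.7% of all genes. DESeq2 called 6 lower and 0 higher, beside 1.86% and 2.08%. The DESeq2 calls were Acta1, Acta2, Actb, Actc1, Cnn1 and Cnn2. Without DKO library 1 edgeR called 10, where it called 17.1% of all genes, and without DKO library 2 it called 6, where it called 8.24%. Without either WT library it called 0 partner genes.

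The actins, on which tropomyosin lies, were lower in all 6 genes, with a median of -1.30. The groups did not overlap for any of the 6, beside 25.2% of all genes that were lower without overlap. edgeR called 0 of the 6, beside 0.0625% of all genes called lower, and DESeq2 called 4, beside 1.86%. Cardiac alpha-actin (Actc1) was at 17537 and 12642 CPM in WT and 6688 and 6282 CPM in DKO. Skeletal alpha-actin (Acta1), which the newborn heart also expresses and which was chosen after its values were seen, was at 149 and 63.5 CPM in WT and at 3.35 and 6.85 CPM in DKO, with an adjusted p of 0.121 in edgeR and 2.67e-06 in DESeq2. The troponins, which bind sarcomeric tropomyosin, showed smaller differences: the fold change was negative for 6 of 7 tested genes and its median -0.13. Tnnt2, cardiac troponin T and the subunit that binds tropomyosin, was at 7773 and 7602 CPM in WT and 8731 and 7569 CPM in DKO, and Tnnc1, the calcium-binding subunit, was at 1915 and 1843 against 1908 and 1635 CPM. Both overlapped between the groups. The log2 fold changes were 0.08 (SE 0.13, 95% confidence interval -0.24 to 0.41) for Tnnt2 and -0.09 (SE 0.13) for Tnnc1.

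Tropomodulins and leiomodins cap or nucleate the slow-growing end of the thin filament and bind tropomyosin there. Their 7 genes had a median of 0.08, with 2 of 7 negative. Tmod1, the capping protein of cardiac thin filaments, was at 294 and 298 CPM in WT and 303 and 296 CPM in DKO. Lmod2, cardiac leiomodin, was at 214 and 163 CPM in WT and 258 and 617 CPM in DKO, without overlap but with a wide gap between the DKO libraries (log2 fold change 1.22, SE 0.44; edgeR adjusted p = 0.271). In the nebulin family, Nebl was at 1038 and 1024 against 1099 and 983 CPM, and Nrap at 472 and 443 against 458 and 818 CPM, both with overlap. Among binders of smooth muscle and non-muscle filaments, 5 of 6 had a fold change below 0 and the median was -0.40. Tagln2 was at 121 and 129 CPM in WT and 84.5 and 100.02 CPM in DKO, and Cnn3, the acidic calponin, at 212 and 189 against 166 and 262 CPM. Cnn1, smooth muscle calponin and chosen after its values were seen, was at 49.0 and 41.2 against 20.5 and 11.8 CPM.

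**Figure D4:**
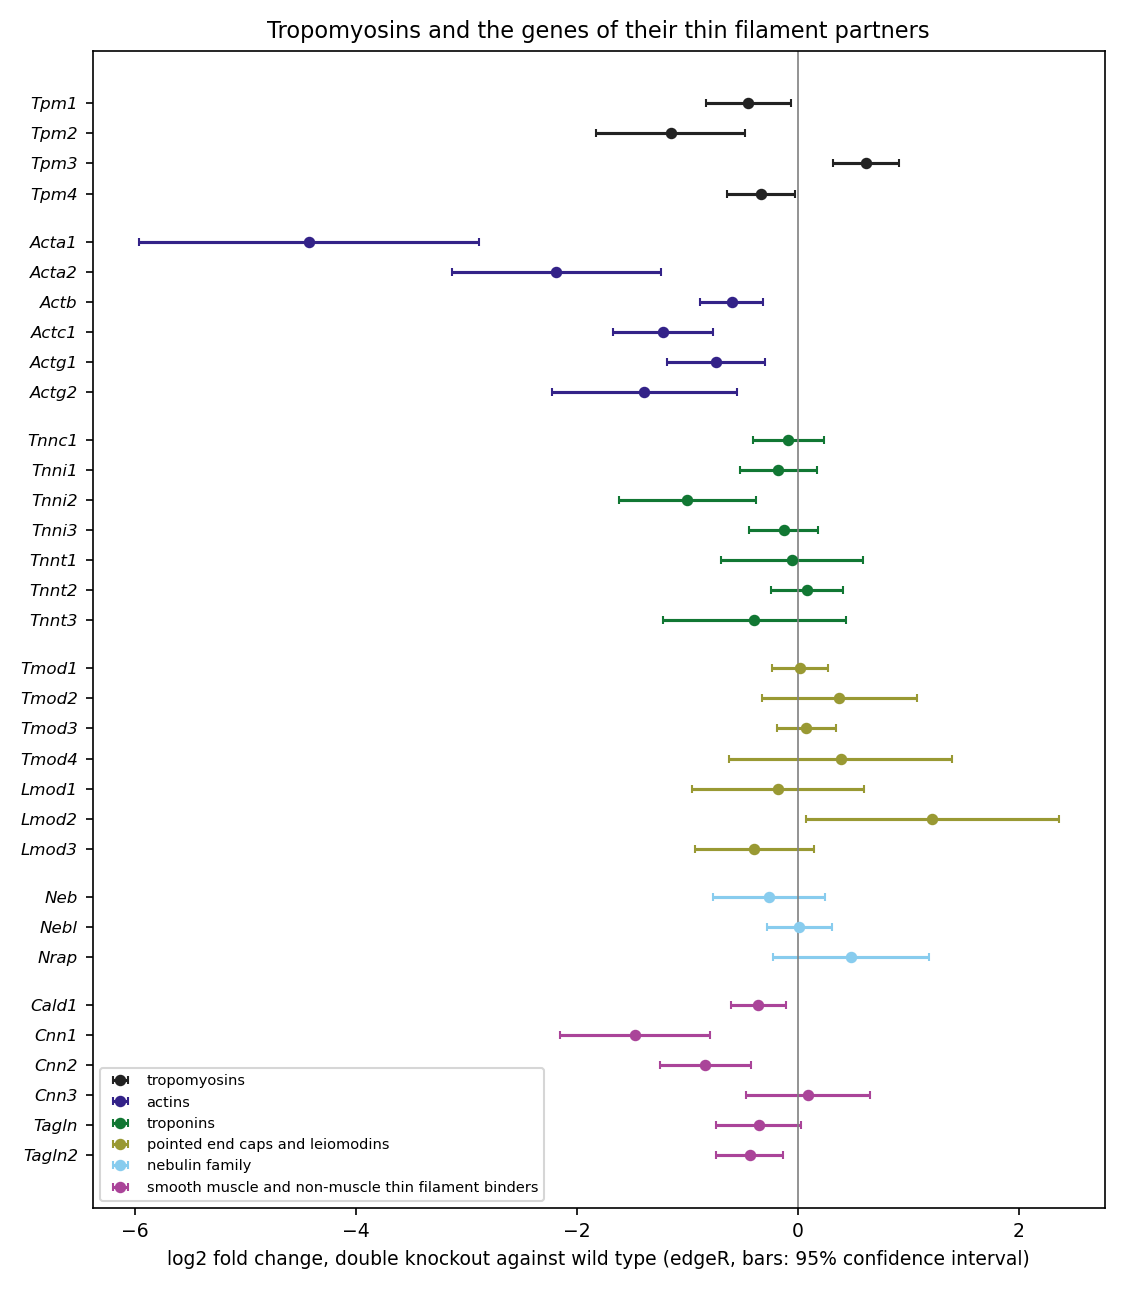
Log2 fold change (horizontal axis, DKO against WT, edgeR) of the 4 tropomyosin genes and the 29 tested partner genes, coloured by role; bars are 95% confidence intervals, before adjustment for the number of genes. All 6 actins lie below 0, Tpm2 at -1.15 lies near Actc1 at -1.22, and Tnnt2 and Tmod1 lie at 0.08 and 0.02.

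Set against single partners within a library, a comparison chosen after the values were seen, Tpm1 shifted in different directions. Its per-length ratio to Actc1 was 0.0807 and 0.101 in WT libraries 1 and 2 and 0.164 and 0.139 in DKO libraries 1 and 2, a log2 difference of 0.74. Its ratio to Tnnt2 was 0.872 and 0.807 in WT and 0.604 and 0.554 in DKO, a log2 difference of -0.54. Its ratio to Tmod1 was 11.7 and 10.5 in WT and 8.85 and 7.20 in DKO. So Tpm1 was higher relative to cardiac actin and lower relative to cardiac troponin T and tropomodulin, with no overlap in any of these 3 ratios (p = 0.333 in a two-sided exact permutation test, the smallest that the design allows). The ratio to Ttn, the giant sarcomere protein titin, was 10.5 and 10.6 in WT and 10.6 and 8.51 in DKO and overlapped. Ratios to the troponins Tnnc1, Tnni3 and Tnni1 and to the cardiomyocyte marker Myh6 were lower in DKO without overlap. Their log2 differences were -0.37, -0.32, -0.27 and -0.18. For Myh6 the ratios were 0.360 and 0.310 in WT against 0.308 and 0.280 in DKO, and for Tnni3 1.08 and 0.908 against 0.835 and 0.747. In both, the nearest libraries of the groups were closer to each other than the WT libraries were. Of the ratios computed, only that to Actc1 was higher in DKO, and Actc1 itself had a log2 fold change of -1.22.

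The genes whose profile over the 4 libraries was nearest to each member were found among 3907 genes with a mean of at least 50 CPM, by the root mean square difference of log2 CPM centred on each gene's mean. Nearest to Tpm2 were Rtn4ip1 (0.06), the tetraspanin Tspan2 (0.10) and the small heat shock protein Hspb6 (0.12). Hspb6, for one, was at 129 and 109.7 CPM in WT and 56.7 and 35.0 CPM in DKO. Nearest to Tpm1 were Hyou1, Rnf7 and Dnmt1 (0.02, 0.02 and 0.03), nearest to Tpm4 Cul2, Ostc and E2f6 (0.02 each), and nearest to Tpm3 Btaf1, Appl2 and Zfp945 (0.04, 0.04 and 0.07). Between the members themselves the difference was 0.09 for Tpm1 and Tpm4, 0.39 for Tpm1 and Tpm2 and 0.94 for Tpm2 and Tpm3. With 4 libraries these values order genes by likeness only.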

How the data were processed

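Expression was measured by RNA sequencing of P0 mouse hearts, 2 libraries per genotype, grouped by the labels. The deposited values are raw counts of reads per gene, made by the authors with HTSeq on build mm10, per the submitters' processing notes, which also name DESeq 1.10.1. Aligner, annotation release, strand setting and read length are not given here. Total counts were 29460641, 25205257, 27328195 and 16175259.

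Symbols, lengths and positions came from GENCODE M21 (mm10), which matched 42462 of 43346 identifiers, and promoters from RefSeq. All genes entered edgeR 4.0.16 in R 4.3.3 (filterByExpr, TMM factors, robust quasi-likelihood test), with Benjamini-Hochberg adjustment over 16009 genes and a threshold of 0.05. The code was tested on simulated data. Shares and ratios used counts per kilobase of the union of annotated exons. Copies were sought with blastn 2.17.0. Profiles were compared on log2 CPM with a pseudocount of 0.5. The 2 libraries of a group differed by more than sampling noise (chi-square per gene 15.2 in WT and 36.1 in DKO) and were kept as 2 samples.

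Alternatives were other scaling factors (RLE, upper quartile, library total alone), other filters (none, or one asking for more reads), DESeq2 1.42.0, limma-voom (limma 3.58.1), no robust estimation, a replicate block, mitochondrially encoded genes left out, the 100 most abundant genes left out of the scaling, other lengths, added copies and leaving out each library. The crossed block and the fit with added copies were chosen after seeing the data. The members and lists were chosen with earlier results of these data known. Named were the members, Mrtfa and Mrtfb, the 2 most abundant tested genes per length in each role of the partner list, any list member past the edgeR threshold, and the 3 genes nearest to each member. Acta1, Actb, Cnn1, Cnn2, the smooth muscle markers, Ttn, Tnni1, Tnni3, Myh6 and the copies were chosen after their values were seen.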

Additional observations from a re-analysis of the deposited data

How the results depend on the processing

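The sign of all 4 fold changes held in each of the 17 alternative fits, but their calls did not. For Tpm3 with copies added, a fold change of 0.02 (95% confidence interval -0.24 to 0.28) shows no direction. Without a filter, Tpm1 (-0.46), Tpm2 (-1.17) and Tpm3 (0.60) passed, so 3 members did, beside 6.07% of the 24928 genes then tested. In DESeq2, Tpm2 (-1.16) and Tpm3 (0.62) passed, so 2 members did, with 6 partner genes. It called 3.93% of the genes to which it gave an adjusted p. With 1 library left out, the fold change ran from -0.62 to -0.29 for Tpm1, -1.57 to -0.84 for Tpm2, 0.52 to 0.71 for Tpm3 and -0.44 to -0.24 for Tpm4. The members past the threshold then ran from 0 to 4, all 4 without DKO library 1, the partner genes from 0 to 10 and the partner median from -0.34 to -0.21. Over all genes edgeR called 12, but 1514 without a filter, 2795 and 1364 with DKO library 1 or 2 left out and 2 and 3 with WT library 1 or 2 left out, while DESeq2 called 532. The cause was not tested. With copies added, the Tpm3 fold change was 0.02, its share difference 0.43 percentage points in place of 0.60 and its log2 ratio difference to Tpm1 0.48 in place of 1.08. The Tpm2 share difference was -0.82 by the longest transcript, -0.71 by coding length and -0.63 without length. With a replicate block Tpm2 was at -1.19 (adjusted p = 0.0873), 0 members passed and edgeR called 2 genes in all. The libraries share only a number, and the correlation of the paired differences across genes was -0.10. A crossed block called 3 genes, Acta1 being the 1 partner among them. The count of 508 reads of Tpm2 in DKO library 2 carries a counting error of 4.44%, the largest of the 4 genes.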
